A study of Mus musculus with 6 samples.

Results

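This report describes imprinted genes, the genes that are read mainly or only from the chromosome inherited from 1 parent, in differentiating mouse muscle cells treated with a small interfering RNA (siRNA) against the long non-coding RNA SYISL. The members are a list of 37 imprinted genes. All array probes whose printed RefSeq accession belongs to one of them were taken. That gave 59 probes for 36 genes, out of 20659 named genes on the array, and Rian was left out because no probe was matched to it. A gene counts as measured where a probe of it exceeded background clearly on each of the 3 si-NC or each of the 3 si-SYISL arrays, and 33 of the 36 genes were measured. The other 3 were Rtl1, the retrotransposon-derived gene of the Dlk1-Dio3 domain, Phlda2, a growth-limiting gene of the Kcnq1 domain, and Grb10, an adaptor that restrains insulin signalling. Grb10 was not well above background on any array, and Rtl1 and Phlda2 were so on 1 si-SYISL array each, so no difference is given for them.

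Imprinting is set in the germ line, where DNA methylation marks a control region on the chromosome of one parent. The mark is kept through later cell divisions, and it decides which allele of the nearby genes is transcribed, so imprinted genes lie in clusters that share a control region. Several are known in muscle: Dlk1 and Peg3 are expressed in muscle precursor cells, Ndn favours myoblast differentiation, and the Dlk1-Dio3 domain carries a large cluster of microRNAs. The arrays read the RNA of both alleles together, so they hold no information on which allele was transcribed.

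The cells were C2C12, an established line of mouse myoblasts that fuse into myotubes when serum is lowered. Both groups were transfected and then kept for 2 days in medium with 2% horse serum. The si-NC group received a control siRNA and the si-SYISL group the one against SYISL, with 3 single-colour Agilent arrays in each and 1 µg of total RNA per array. No probe was assigned to SYISL with the table used here, so the depletion itself was not checked.

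On each array 43020 non-control spots were read and 0 were saturated. Between 78.2% and 84.6% of the spots were well above background on the si-NC arrays, and 87.9% to 90.6% on the si-SYISL arrays. This share moves with the group, and its part in the differences below was not tested. In either group, replicates 1 and 3 were closer to each other than repeated spots of a single probe are (chi-square per probe below 1 in both of these pairs, 24.7 to 163 in the other 13 pairs), so their mean was counted as 1 sample and each group has 2 samples. Nothing in the labels says that replicates came from separate cultures, and the p-values measure the spread between these samples, which may be technical. The median over all 28555 features (18635 of them named genes) was 0.16 higher in si-SYISL on the log2 scale. All log2 differences are therefore si-SYISL minus si-NC with that median subtracted, ± the standard error (SE) from limma, while the adjusted p-values test the difference before subtraction. Intensities are given after each array was scaled to a common 75th percentile; replicates 1 and 3 are given as 1 value. All 10 muscle markers checked were well above background on all 6 arrays, with summed log2 levels of 17.22 to 17.34 in si-NC and 17.52 to 17.53 in si-SYISL; smallest in p were Myh3 (0.62 ± 0.12, adjusted p = 0.115) and Ckm (0.65 ± 0.15, adjusted p = 0.124), then Acta1 (0.56 ± 0.15) and, on the other side, Myod1 (-0.78 ± 0.13), both with an adjusted p of 0.131, and 6 of the 10 lay below the median of all features. The summed levels are before subtraction of the median of all features, 0.16, unlike the differences of single genes. In bulk RNA, fewer cells of a type and less RNA per cell cannot be told apart.

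The imprinted genes did not move as a block. At an adjusted p of 0.05 limma called 0 of the 33, and the share called among all features was 0%. The smallest adjusted p of a member was 0.0839, for Nap1l5. At an unadjusted p under 0.05 there were 4 higher members (16.8% of all features) and 6 lower ones (5.85% of all features). For 14 members the si-SYISL samples were both higher than either si-NC sample, which is 42.4% of them against 46.3% of all features. Both lay below for 9, which is 27.3% against 15.8%. These counts depend on the scaling: after quantile normalisation 7 members were higher and 11 lower (30.3% and 24.1% of all features), and after subtraction of each array's median again 7 and 11 (27.7% and 25% of all features). The median difference of the members was -0.13, and 21 of the 33 lay below the median of all features. It was -0.14 for the 20 genes listed as paternally expressed and -0.11 for the 12 listed as maternally expressed. The 2 classes thus had nearly the same median. They come from the gene list, and imprinting in these cells was not measured.

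**Figure D1:**
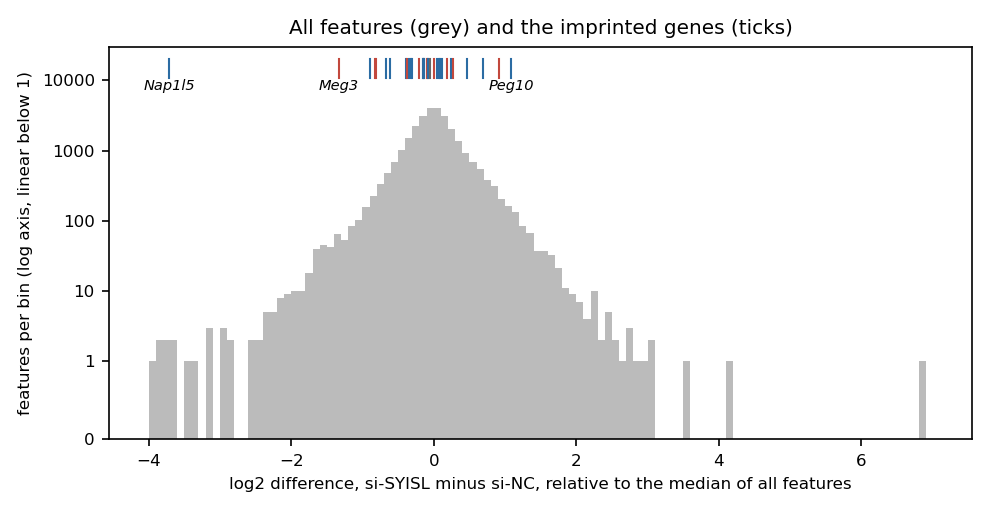
Histogram of the log2 differences between si-SYISL and si-NC for all 28555 features (grey; x axis, log2 difference relative to their median; y axis, features per bin on a log axis), with a tick for each of the 33 imprinted genes, blue for paternally and red for maternally expressed ones and grey for Gnas. Most ticks lie near 0, while Nap1l5 at -3.71 lies in the far lower tail.

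**Figure D2:**
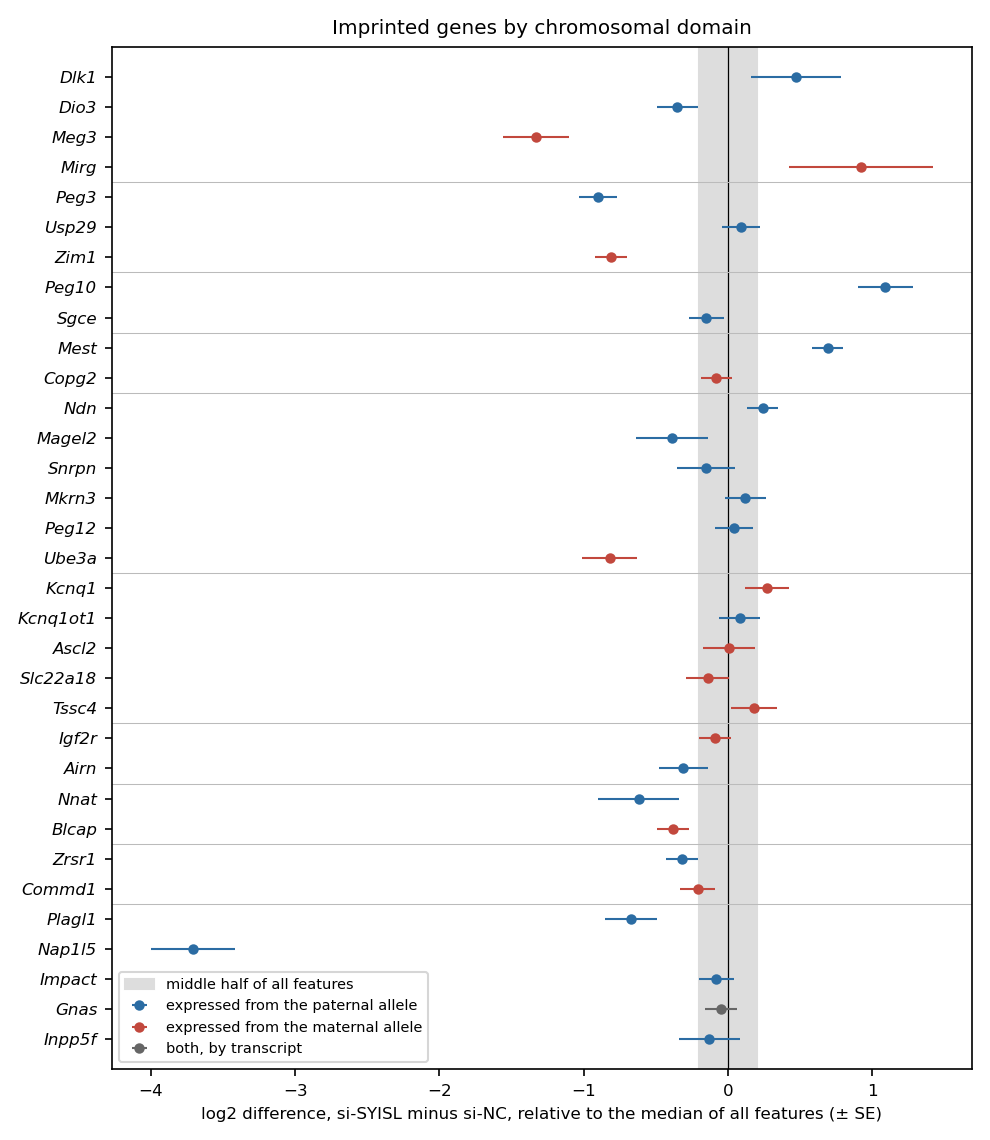
Log2 difference of each imprinted gene (x axis, si-SYISL minus si-NC relative to the median of all features; points, estimate; bars, SE with 2 samples in each group), ordered by chromosomal domain with lines between domains. The grey band spans the quartiles of all features, from -0.20 to 0.20. Furthest outside it lie Nap1l5, Meg3, Peg3, Ube3a and Zim1 below and Peg10, Mirg and Mest above. Other members also lie outside the band on either side.

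Of the 33 members, 3 lay more than 1 from the median on the log2 scale (9.09%, against 4.04% of all features): Nap1l5, Meg3 and Peg10. Nap1l5 encodes a protein of the nucleosome assembly family. It is an intronless gene that lies inside the gene Herc3, and it is transcribed from the paternal allele. Its intensity was 335 and 212 in si-NC and 19.7 and 26.5 in si-SYISL. Every si-SYISL array was thus far below every si-NC array. The difference was -3.71 ± 0.29 (adjusted p = 0.0839), an 11.7-fold lower intensity in si-SYISL before subtraction of the median. Among all features it was the 5th lowest difference and the 41st smallest p. The other Nap1l5 probe read 438 and 228 in si-NC against 15.8 and 23 in si-SYISL, a difference of -4.21 ± 0.38. Both probes were still well above background on all 6 arrays, though near the dimmest signals that were, which lay at 11.9 to 19.3 on the si-SYISL arrays. The difference ranged from -4.41 to -2.23 over all alternative settings. The smallest came with normexp background correction, which added an offset of 50 to each intensity. The part of this offset in the smaller value was not tested. There the other probe, at -4.21 without this correction, stood for the gene, and the difference of Nap1l5 had an adjusted p of 0.0421. It also passed the threshold with probes required on all 6 arrays (adjusted p = 0.049), with a variance trend (0.0109), and without either si-NC sample (0.0105 and 0.0297, with the lone si-NC sample assumed to vary like the si-SYISL samples), and reached 0.289 when si-SYISL replicates 1 and 3 were left out.

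**Figure D3:**
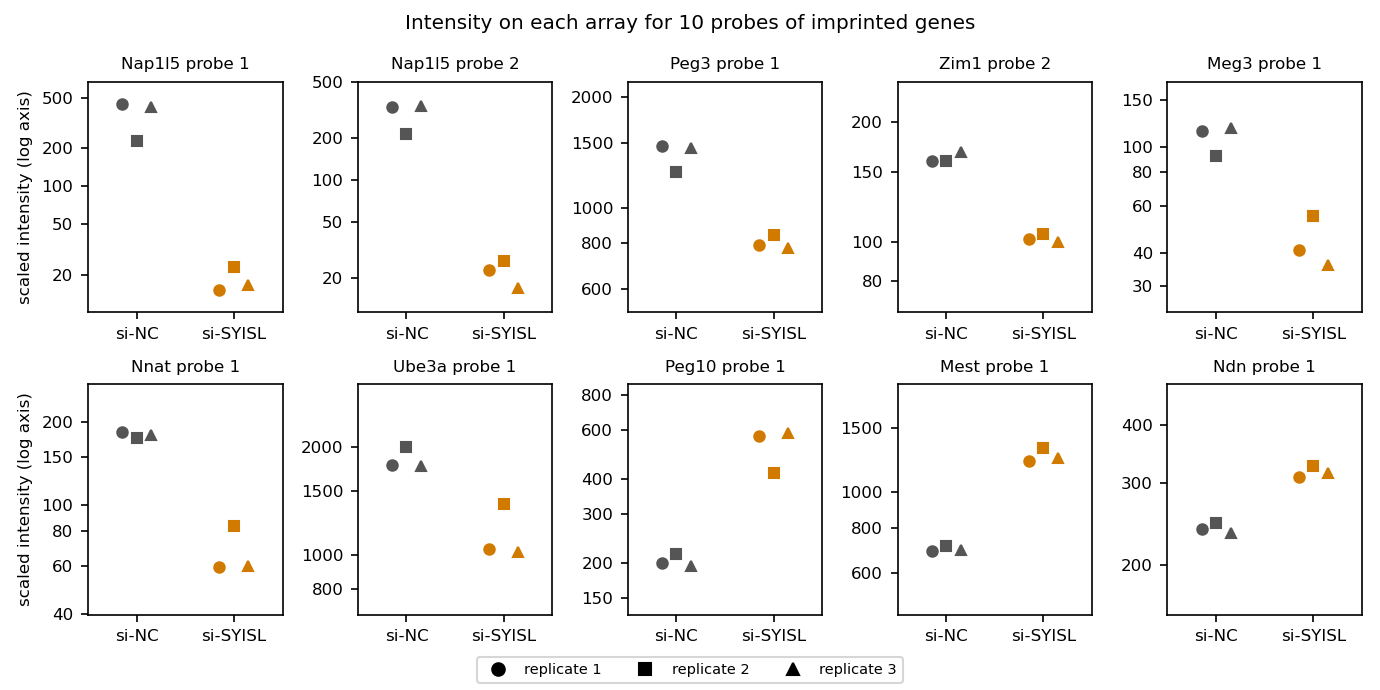
Scaled intensity on each of the 6 arrays for 10 probes of imprinted genes (y axis, log scale with its own range in each panel; grey, si-NC; orange, si-SYISL; symbols, replicate number). The probes were picked after their values were seen (for Nnat not the one that stands for the gene, which overlapped between groups), and in all 10 panels the 3 si-SYISL arrays lie on one side of the 3 si-NC arrays, lower for Nap1l5, Peg3, Zim1, Meg3, Nnat and Ube3a and higher for Peg10, Mest and Ndn.

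The host gene Herc3, a ubiquitin ligase gene that is no member and was looked at because Nap1l5 lies within it, stood at 3680 and 3610 in si-NC and at 3700 and 4110 in si-SYISL, a difference of -0.06 ± 0.12 (adjusted p = 0.61). The difference of Nap1l5 was therefore not seen in the gene around it; the contrast between the 2 genes was not tested. To show the sequence from which Nap1l5 is read, the 250 bases before its start site are printed here (RefSeq sequence, GRCm38.p6, minus strand, chr6:58907127-58907376). Capitals mark the motif TGCCGC, which in its methylated form is bound by ZFP57, the zinc finger protein that keeps methylation at imprinted control regions.
Nap1l5: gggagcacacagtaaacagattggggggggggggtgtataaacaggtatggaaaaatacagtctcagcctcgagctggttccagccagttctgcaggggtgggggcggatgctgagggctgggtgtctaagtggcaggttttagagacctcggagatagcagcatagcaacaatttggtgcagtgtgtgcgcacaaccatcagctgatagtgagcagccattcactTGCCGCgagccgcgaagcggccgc
These bases hold 10 CpG pairs and the motif once. It occurs once more in the 50 bases after the start.

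The Dlk1-Dio3 domain held both directions. Paternal genes here are Dlk1, which encodes a membrane protein of the Notch ligand family, and Dio3, the deiodinase that inactivates thyroid hormone; Meg3 and Mirg are maternal non-coding RNAs. Meg3 was at 115 and 91.9 in si-NC and at 38.3 and 55 in si-SYISL. Its difference was -1.33 ± 0.23 (adjusted p = 0.128), a 2.24-fold lower intensity before subtraction of the median, with no overlap between the groups. With normexp background correction it was -0.61. Only 1 of the 3 Meg3 probes was measured, and the other pair was not well above background on any si-NC array but was on 2 of 3 si-SYISL arrays. These read 21 and 10.9 in si-NC against 14.6 and 16 in si-SYISL, and 5.49 and 14.5 against 12.8 and 22, so they do not show the lower level. Mirg, a microRNA host at the other end of the domain, was at 115 and 42.6 in si-NC and at 136 and 162 in si-SYISL. That gives 0.92 ± 0.50 (adjusted p = 0.273), with the 2 si-NC samples further apart from each other than the higher of them was from si-SYISL. Its value was 0.23 when si-NC replicate 2 was left out, and 0.08 in the second scan, which held replicate 3 of each group. With si-NC replicates 1 and 3 left out it was 1.63, and its adjusted p was then 0.0165, with the lone si-NC sample, at 42.6, assumed to vary like the si-SYISL samples. Dlk1 showed the same pattern, at 259 and 157 in si-NC and 263 and 372 in si-SYISL (0.47 ± 0.31, adjusted p = 0.291), with replicates 1 and 3 nearly equal between the groups. Its difference was -0.09 in the second scan and 0.13 to 0.82 with 1 sample left out, and its other probe gave 0.13 ± 0.20 with overlapping groups. Dio3 read 73.4 and 61 in si-NC and 60.9 and 57 in si-SYISL, a difference of -0.35 ± 0.14 (adjusted p = 0.446). The 2 measured maternal RNAs of the domain thus lay on opposite sides of the median, as did the 2 measured paternal genes.

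In the Peg3 domain, Peg3 and Zim1 were both lower in si-SYISL. Peg3 encodes a zinc finger protein made from the paternal allele and is found in muscle stem cells; Zim1 is a zinc finger gene read from the maternal allele. Peg3 was at 1460 and 1250 in si-NC and at 785 and 842 in si-SYISL, so the groups were well separated. Its difference was -0.90 ± 0.13 (adjusted p = 0.124). A second, dimmer Peg3 probe gave -1.90 ± 0.34, with 2 of 3 si-SYISL arrays well above background. It was kept through si-NC, where it was brighter, so it is no support for a lower level, nor is the mean of both, -1.40. Zim1 stood at 164 and 160 in si-NC against 101 and 105 in si-SYISL (-0.81 ± 0.11, adjusted p = 0.118), and its other probe gave -0.52 ± 0.19. Usp29, a ubiquitin protease gene that starts next to Peg3 and runs the other way, was at 112 and 96.6 in si-NC and at 122 and 127 in si-SYISL. Its difference was 0.09 ± 0.13 (adjusted p = 0.297). Since Peg3 and Usp29 are both paternal and start 163 bases apart, the stretch between their start sites is printed (GRCm38.p6, plus strand, chr7:6730420-6730582, in the direction of Usp29).
Peg3-Usp29: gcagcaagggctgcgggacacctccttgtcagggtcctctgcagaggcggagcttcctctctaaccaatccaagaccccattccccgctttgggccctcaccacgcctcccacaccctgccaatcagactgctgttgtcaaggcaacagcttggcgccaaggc
It holds 5 CpG pairs and 0 copies of TGCCGC on either strand, and on its 2 sides lie a gene at -0.90 and one at 0.09. Whether the 2 genes differ from each other was not tested.

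Peg10 and Sgce form a like pair, paternal genes that start head to head with 101 bases between their annotated ends. Peg10, a retrotransposon-derived gene needed in the placenta, was at 198 and 215 in si-NC and at 576 and 419 in si-SYISL. The groups did not overlap, and the difference was 1.09 ± 0.19 (adjusted p = 0.113), the highest among the members. Its other probe read 116 and 109 against 124 and 133, only 0.04 ± 0.12, so the 2 Peg10 probes disagree, and their mean gave 0.56. Sgce, which encodes epsilon-sarcoglycan of the muscle membrane complex, was at 9030 and 8630 in si-NC and at 9330 and 8450 in si-SYISL, with overlapping groups (-0.15 ± 0.12, adjusted p = 0.967).

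Mest, a paternal gene for a hydrolase-like protein linked to growth and fat cell size, was higher at each of its 3 probes. The brightest read 694 and 714 in si-NC and 1230 and 1320 in si-SYISL, a difference of 0.69 ± 0.11 (adjusted p = 0.102). The others gave 0.64 ± 0.11 and 0.85 ± 0.33. Over all alternative settings the gene stayed between 0.66 and 0.81. The neighbouring coat protein gene Copg2, which overlaps the end of Mest, was at 1650 and 1630 against 1680 and 1800 (-0.08 ± 0.11, adjusted p = 0.638). Mest carries the microRNA gene Mir335, whose mature products are shown with the seed (bases 2 to 8) in capitals; mature microRNAs were not measured on these arrays.
mmu-miR-335-5p: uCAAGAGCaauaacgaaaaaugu
mmu-miR-335-3p: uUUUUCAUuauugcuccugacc
Meg3 holds the Mir770 gene, shown for comparison because its host differed in the other direction; the 4 seeds are all different.
mmu-miR-770-5p: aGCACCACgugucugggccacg
mmu-miR-770-3p: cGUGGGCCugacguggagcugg
Hairpins in the RefSeq microRNA entries used here were counted by position alone. Of these, 10 lie within the bounds of Mirg, 15 of Rtl1, 3 of Rian and 1 each of Mest, Meg3 and Usp29. Strands were not compared in this count. A hairpin counted for a gene may therefore lie on the opposite strand and need not be made from its RNA. The mature mmu-miR-1906 also lies in Meg3.

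In the domain of the Prader-Willi and Angelman syndromes, the lowest of the 6 differences was that of Ube3a, the gene listed as maternal. The contrast with the genes listed as paternal was not tested. Ube3a, the ubiquitin ligase that is imprinted only in neurons, was at 1780 and 1990 in si-NC and at 1030 and 1380 in si-SYISL. Its difference was -0.82 ± 0.19 (adjusted p = 0.170), without overlap. Ndn, which encodes necdin, a protein that favours myoblast differentiation, was at 236 and 247 in si-NC and at 313 and 326 in si-SYISL (0.24 ± 0.11, adjusted p = 0.163). Magel2, the relative of necdin, was at 272 and 232 in si-NC and at 266 and 174 in si-SYISL, where replicates 1 and 3 lay between the 2 si-NC samples and replicate 2 below both (-0.39 ± 0.25). Snrpn, which encodes a splicing protein, overlapped as well (-0.15 ± 0.20), and its 3 probes lay between -0.33 and -0.10. Mkrn3, a ring finger gene, and Peg12 were at 0.12 ± 0.14 and 0.04 ± 0.13; a second, dimmer Peg12 probe gave 0.71 ± 0.42 with the 2 si-NC samples at 94.2 and 40.8.

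The Kcnq1 domain was quiet. Its 5 measured genes lay between -0.14 and 0.27. Kcnq1, a potassium channel gene, was the highest, at 35.9 and 44.4 in si-NC and 51.5 and 56.3 in si-SYISL (0.27 ± 0.15, adjusted p = 0.211). Kcnq1ot1, the paternal RNA that runs antisense inside Kcnq1 and silences its neighbours, gave 0.08 ± 0.14 at one probe and -0.39 ± 0.26 at the other. Tssc4 was at 0.18 ± 0.16, the trophoblast regulator Ascl2 at 0.01 ± 0.18 and the transporter gene Slc22a18 at -0.14 ± 0.15. In the Igf2r domain both genes lay below the median. Igf2r, the receptor that clears IGF2, read 7270 and 7360 in si-NC and 7380 and 8060 in si-SYISL (-0.09 ± 0.11, adjusted p = 0.683), and its antisense RNA Airn read 671 and 883 against 711 and 680 (-0.31 ± 0.17, adjusted p = 0.601), overlapping between groups and ranging from -0.51 to -0.09 with 1 sample left out. With quantile normalisation or the series matrix Igf2r was at 0.04.

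Nnat, which encodes a small membrane protein of the endoplasmic reticulum, lies within Blcap and is paternal. Its 2 probes differed in size. The one with the higher mean over both groups was at 197 and 120 in si-NC and 101 and 124 in si-SYISL, which overlap (-0.62 ± 0.28, adjusted p = 0.354). The other was at 182 and 175 in si-NC and at 59.7 and 83.9 in si-SYISL, without overlap (-1.49 ± 0.20, adjusted p over all probes = 0.112). The mean of both was -1.06, and the gene's value was -0.31 with normexp background correction and -0.27 without si-NC replicates 1 and 3. Blcap was at 1270 and 1210 against 1050 and 1080 (-0.38 ± 0.11, adjusted p = 0.295). The splicing factor gene Zrsr1, within the copper-handling gene Commd1, read 10100 and 10700 in si-NC and 9090 and 9600 in si-SYISL (-0.32 ± 0.11, adjusted p = 0.412), and Commd1 itself gave -0.21 ± 0.12 (adjusted p = 0.799). Both members of these 2 pairs lay below the median.

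**Figure D4:**
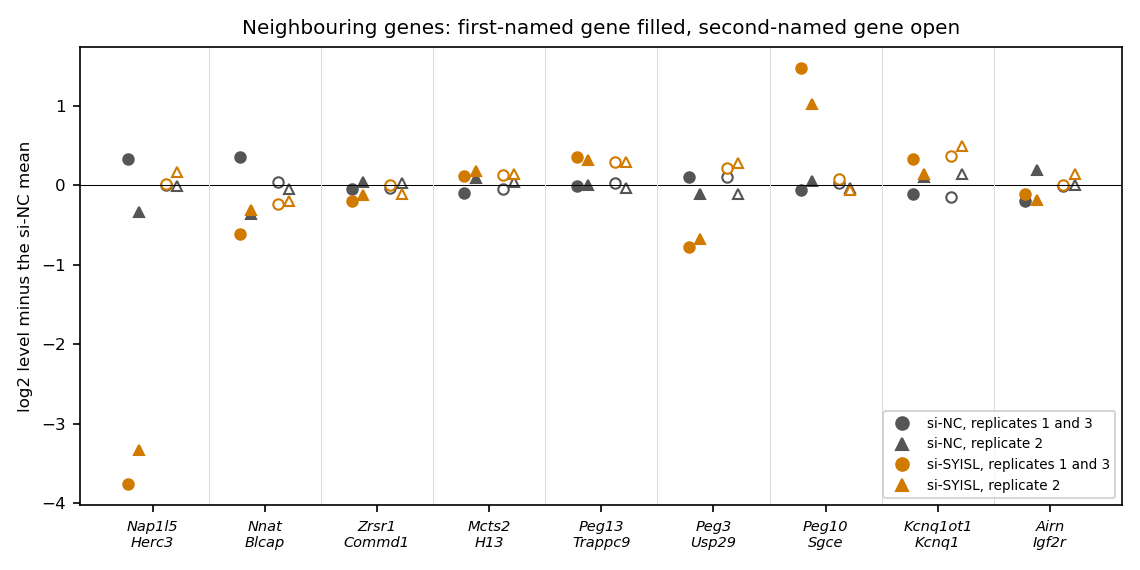
Log2 level of neighbouring genes in each of the 4 samples minus the mean of the 2 si-NC samples (y axis, before subtraction of the median of all features; filled symbols, first-named gene; open symbols, second-named gene; circles, replicates 1 and 3; triangles, replicate 2). In the si-SYISL samples Nap1l5 and Peg3 lie below and Peg10 above their neighbours Herc3, Usp29 and Sgce, and all genes of the other 6 pairs stay within 1 of the si-NC mean.

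Plagl1, the paternal zinc finger gene that arrests the cell cycle and is also called Zac1, was measured with 4 probes that fell into 2 kinds. The one with the highest mean was at 1260 and 978 in si-NC and at 730 and 841 in si-SYISL (-0.67 ± 0.18, adjusted p = 0.208), and a second gave -0.91 ± 0.14. The remaining pair gave -0.11 ± 0.17 and 0.06 ± 0.13. With normexp background correction the gene's value was 0.05, because the probe that gave 0.06 then had the highest mean and stood for it. Gnas, which encodes the stimulatory G protein subunit and uses several promoters of different imprinting, was at 152000 and 141000 against 157000 and 161000 at its brightest probe (-0.05 ± 0.11, adjusted p = 0.538). A dim Gnas probe for another transcript was at 32.7 and 23.7 in si-NC and 54.1 and 63.1 in si-SYISL (0.91 ± 0.20, adjusted p over all probes = 0.130), and only 1 of the 3 si-NC arrays was well above background there. Impact, which restrains the amino acid sensor GCN2, was at -0.08 ± 0.12 and the phosphatase gene Inpp5f at -0.13 ± 0.21, both with overlapping groups.

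**Figure D5:**
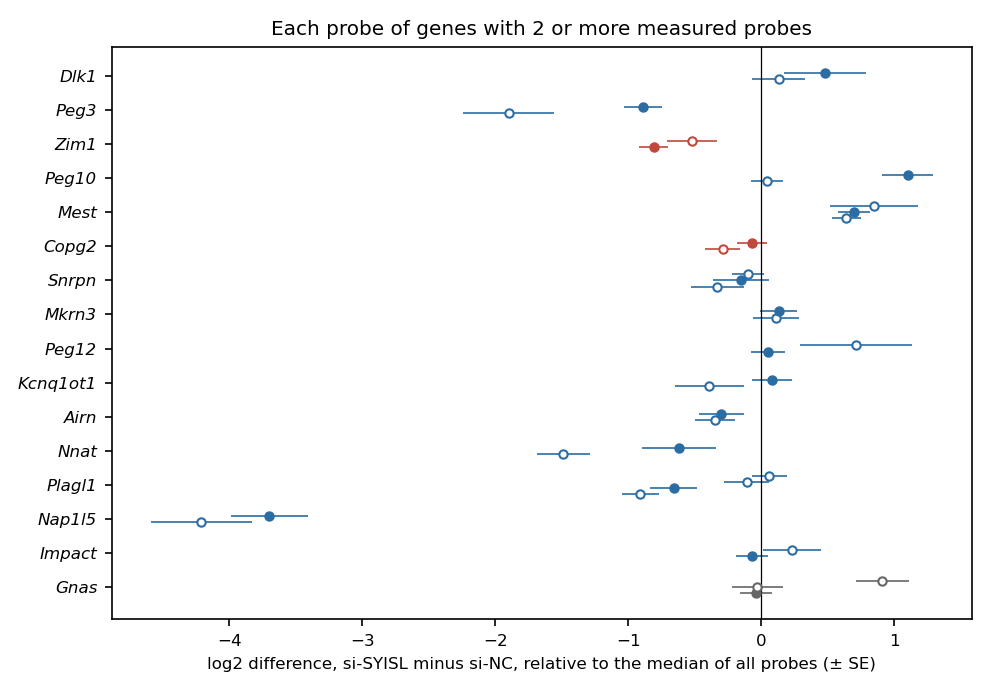
Log2 difference of each measured probe (x axis, relative to the median of all probes; bars, SE with 2 samples in each group) for the 16 imprinted genes with 2 or more measured probes; filled points are the probe with the highest mean, which stands for the gene, open points the others, blue for paternally and red for maternally expressed genes and grey for Gnas. The probes of 12 genes lie on 1 side of 0 and those of 4 genes on both sides.

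Of the 33 measured genes, 16 had 2 or more measured probes. For 12 of these all probes lay on the same side of the median, among them Nap1l5, Zim1, Mest and Nnat. Also among them are Peg10, with probes at 1.1 and 0.04, and Peg12, with probes at 0.05 and 0.71. The same share over all genes with several probes was not computed, so the count is no measure of agreement. The 12 include Peg3, whose dimmer probe was kept through si-NC, where it was brighter, so the side of that probe is no support. For Gnas, Impact, Kcnq1ot1 and Plagl1 the probes lay on both sides. The higher probes of Gnas and Impact were well above background on 1 of 3 si-NC arrays and were kept through si-SYISL, where they were brighter, so their side is no support. The probes of 7 genes were more than 0.5 apart, the widest gap being 1.06 for Peg10. The files give the transcript each probe was designed for but not the probe's sequence, so which part of the RNA a probe reads was not examined.

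The start regions of the imprinted genes were rich in CpG pairs. RefSeq windows of 300 bases (250 before and 50 after a start site) were matched for 32 of the 37 genes, 43 windows in all. Their median was 16 CpG pairs and 57.3% G and C, against 7 and 52.7% over 32851 windows of all genes. The letters TGCCGC, searched on both strands, were in 11 of the 43 windows (25.6%) and in 11.6% of all windows; 2 or more copies were in 3 of the 43 (6.98%) and in 1.53% of all. These are 1 window of Nap1l5 and 2 overlapping windows of Mest, genes that differed in opposite directions. A match is a description of the letters and not a site of binding. The motif itself holds a CpG pair, and the shares were not adjusted for the CpG content of the windows. Genes with several start sites count more than once. For Mest, Nnat and Meg3 the 250 bases before the start are printed (GRCm38.p6, plus strand, chr6:30737800-30738049, chr2:157559828-157560077 and chr12:109540746-109540995), again with TGCCGC or its reverse complement in capitals, to set beside that of Nap1l5.
Mest: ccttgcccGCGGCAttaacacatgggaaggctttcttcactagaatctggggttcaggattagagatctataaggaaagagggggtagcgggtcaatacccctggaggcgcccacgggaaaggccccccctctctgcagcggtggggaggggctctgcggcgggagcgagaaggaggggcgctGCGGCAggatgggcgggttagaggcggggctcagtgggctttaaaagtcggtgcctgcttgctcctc
Nnat: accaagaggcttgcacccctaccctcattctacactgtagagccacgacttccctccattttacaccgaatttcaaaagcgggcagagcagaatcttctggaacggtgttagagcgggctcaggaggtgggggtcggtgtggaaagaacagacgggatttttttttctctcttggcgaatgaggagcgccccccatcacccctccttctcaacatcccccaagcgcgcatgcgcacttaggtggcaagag
Meg3: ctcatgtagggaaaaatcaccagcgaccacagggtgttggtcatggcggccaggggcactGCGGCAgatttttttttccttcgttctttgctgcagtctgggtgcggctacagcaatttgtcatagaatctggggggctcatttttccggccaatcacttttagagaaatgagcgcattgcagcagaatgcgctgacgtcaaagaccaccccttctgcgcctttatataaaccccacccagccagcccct
The upstream stretch of Mest held the motif 2 times and 14 CpG pairs, and that of Meg3 held it once with 10 CpG pairs. That of Nnat held 12 CpG pairs and 0 copies, while the whole Nnat window of 300 bases held 1 copy.

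A second list of 36 other imprinted genes gave 32 measured ones. At the adjusted threshold 0 passed, and the median was -0.02. The si-SYISL samples were both higher than either si-NC sample for 16 genes and both lower for 8 (46.3% and 15.8% of all features). The 16 include Tfpi2, which was well above background on no si-NC array and was kept through si-SYISL, where it was brighter. At an unadjusted p under 0.05 limma gave 3 higher and 3 lower genes (16.8% and 5.85% of all features). The smallest p belonged to Pon2, a paraoxonase gene of the Peg10 domain (-0.69 ± 0.12, adjusted p = 0.145), and to Gatm, which makes the precursor of creatine (-1.40 ± 0.33, adjusted p = 0.161). Gatm was at 9440 and 11300 in si-NC and at 3220 and 5970 in si-SYISL, so the groups were apart and the 2 si-SYISL samples differed widely. Next in p came the non-coding RNA Peg13, on the other side at 0.18 ± 0.11 (adjusted p = 0.184). The amino acid transporter gene Slc38a4 gave -0.86 ± 0.23 (adjusted p = 0.201). It read 32.1 and 37.6 in si-NC and 17.6 and 26.2 in si-SYISL, near the dimmest signals that were well above background. Those lay at 11.9 to 19.3 on the si-SYISL arrays. Igf2, the fetal growth factor, was at -0.01 ± 0.12 and the cell cycle inhibitor Cdkn1c at -0.32 ± 0.11; H19 was not analysed here.

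Of 21 genes whose products write, read or guard imprints, 20 were measured and 0 passed at the adjusted threshold. Both si-SYISL samples were below both si-NC samples for 9 and above for 5 (15.8% and 46.3% of all features), and 16 of the 20 lay below the median of all features. Zfp445, a zinc finger protein gene of imprint maintenance, was at -1.08 ± 0.19 (adjusted p = 0.133). Uhrf1, which brings the maintenance methyltransferase to newly copied DNA, was at -0.94 ± 0.19 (adjusted p = 0.148), and Tet2, an enzyme that oxidises methylated cytosine, at -0.98 ± 0.27 (adjusted p = 0.20). The methyltransferase gene Dnmt1 itself was at -0.35 ± 0.12 (adjusted p = 0.361). The silencing cofactor gene Trim28 was at 0.02 ± 0.17 and the zinc finger gene Zfp57 at 0.04 ± 0.12. DNA methylation was not measured.

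Several imprinted genes are known best from nerve cells, so neuron markers were also read. All 7 were well above background on all 6 arrays, and their summed level on the log2 scale was 14.17 and 14.37 in si-NC and 14.11 and 13.98 in si-SYISL. Of the 7, Tubb3 was at -1.64 ± 0.15 (adjusted p = 0.0847) and Map2 at -0.82 ± 0.11 (adjusted p = 0.121). On the other side, Snap25, at 337 and 1720 in si-NC and 3950 and 2130 in si-SYISL, gave 1.77 ± 0.86 (adjusted p = 0.262). Rbfox3 was at 0.28 ± 0.20 (adjusted p = 0.267), and 4 of the 7 lay above the median of all features. The part of these markers in the values of Nap1l5, Nnat or Ube3a was not tested. Summed levels of the adipocyte markers were 8.48 to 8.53 in si-NC and 8.60 to 8.84 in si-SYISL, with Lep not well above background on any array, Fabp4 at 0.29 ± 0.17, Plin1 at 0.05 ± 0.25, Cidec at -0.05 ± 0.19 and Adipoq at -0.10 ± 0.13. Those of endothelium were 11.22 to 11.34 and 11.44 to 11.48, with Tie1 not above background, Pecam1 at 0.02 ± 0.12 and Kdr at 0.00 ± 0.11. Immune cell markers summed to 12.10 to 12.14 and 12.40 to 12.98, with Itgam at 0.65 ± 0.29, Ptprc at 0.19 ± 0.20, Csf1r at -0.15 ± 0.13 and Cd3e at -0.28 ± 0.13. Osteoblast markers summed to 8.66 to 8.70 and 8.85 to 8.87. Of these, Alpl was at 0.80 ± 0.12 (adjusted p = 0.102), Ibsp at -0.13 ± 0.11, Runx2 at -0.13 ± 0.13 and Sp7 at -0.17 ± 0.11. All summed levels are before subtraction of the median of all features, 0.16, while the differences of single genes are after it. None of these genes passed the adjusted threshold.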

How the data were processed

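Each array's deposited scanner file gives a processed intensity per spot, background-subtracted and detrended within each array, per the file headers, by Feature Extraction 11.0.1.1 (10.5.1.1 in the submitters' processing notes). The same deposited files give median spot and local background intensities, and other columns flag outliers and spots well above background. The deposited series matrix holds log2 values with a median of 8.58 on each array; their nearly equal quantiles point to quantile normalisation by the authors, which no source used here states. It served only as an alternative.

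In R 4.3.3 (with version 1.17.8 of data.table), log2 signals had the array's 75th percentile subtracted, outlier and control spots were left out and spots of a probe averaged. Accessions were named with the GRCm38.p6 gene list of RefSeq (27234 of 39429 probes); the array was annotated on another assembly. A gene took its kept probe with the highest mean over the samples of both groups, so the choice was not independent of the difference. For Nnat and Nap1l5 the probe not chosen had the higher log2 mean in si-NC. Groups were compared with limma 3.58.1 (lmFit, eBayes, two-sided) and Benjamini-Hochberg adjustment over all 28555 features, with replicates 1 and 3 averaged; the code was tested on simulated data. Sequences and figures used Python 3.11.15, pandas 2.3.3 and matplotlib 3.10.9. Members and lists were chosen with earlier results of these data known. All measured members are named. From each other list the 2 to 4 genes of smallest p are named, plus H19, Igf2, Cdkn1c, Dnmt1, Uhrf1 and Trim28. Herc3, Trappc9, Mcts2, H13, Zfp57, Tfpi2, Lep and Tie1 were named after their values were seen.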

Additional observations from a re-analysis of the deposited data

How the results depend on the processing

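The count of imprinted genes past the threshold was 0 in the reported fit. It was 1 with normexp background and with probes required on all 6 arrays (Nap1l5 each time; 0.641% and 0.183% of all features), 4 with a variance trend (Nap1l5, Mest, Peg10 and Peg3; 3.16% of all features were called) and 12 with the 6 arrays as 6 samples (34.2% of all features), where near-identical arrays count as separate. Leaving out a sample gave 0 to 2 (0% to 4.8% of all features), with the lone sample of a group assumed to vary like the other group. It stayed at 0 with quantile or median scaling, the series matrix, no filter, the mean of probes, every probe, the scan block and the first scan alone. It was also 0 with the replicate block; same-numbered samples did not deviate together (correlation -0.0304). Members higher in both samples were 14 in the reported fit (46.3% of all features). The number was 7 with quantile normalisation (30.3% of all features), 7 with the array median (27.7%) and 8 with the series matrix (30.4%). With each of these settings 11 members were lower (24.1%, 25% and 23.8% of all features), against 9 (15.8%) in the reported fit. The median of the members, -0.13, was -0.06 with normexp, -0.07 with quantile normalisation and in the second scan, -0.08 with the series matrix, and -0.13 to -0.03 without a sample.

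Of 561 alternative values of single members, 30 changed sign. With normexp Ascl2 was -0.04, Plagl1 0.05, Gnas 0.06 and Inpp5f 0.04. With quantile normalisation Copg2 was 0.07, Ascl2 -0.08, Slc22a18 0.00 and Igf2r 0.04, and with the series matrix 0.06 for Copg2, -0.08 for Ascl2 and 0.04 for Igf2r. With the mean of probes Kcnq1ot1 was -0.16, Impact 0.07 and Gnas 0.27. In the second scan Dlk1 was -0.09, Mkrn3 -0.04, Ascl2 -0.13 and Slc22a18 0.15, and with 6 samples Ascl2 was -0.04. Without a sample, Snrpn ranged from -0.36 to 0.07, Peg12 from -0.07 to 0.17, Kcnq1ot1 from -0.04 to 0.22, Gnas from -0.08 to 0.00, Ascl2 from -0.17 to 0.21, Inpp5f from -0.32 to 0.06 and Slc22a18 from -0.32 to 0.06. Apart from Plagl1, where another probe stood for the gene, the cause was not tested. With 2 samples in each group and 2 residual degrees of freedom, the number of arrays limits the precision.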

Other observations

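Among imprinted genes outside the list, 2 more lie inside a host gene by annotated position. The non-coding RNA Peg13, inside Trappc9, was at 3050 and 3080 in the si-NC samples and at 3940 and 3840 in the si-SYISL samples (0.18 ± 0.11, limma adjusted p = 0.184). Its host was at 5950 and 5740 against 7190 and 7200 (0.14 ± 0.11, adjusted p = 0.213), so both were a little higher and neither passed the threshold. Mcts2, inside H13, was at -0.01 ± 0.12 and H13 at -0.02 ± 0.11. In these 2 pairs the inner gene and its host had nearly the same difference, unlike Nap1l5 at -3.71 within Herc3 at -0.06. Nap1l5 had the lowest difference of the members. Of the other inner genes, Zrsr1 was at -0.32 within Commd1 at -0.21. Nnat was at -0.62, or -1.49 at its other probe, within Blcap at -0.38. The contrasts between inner genes and hosts were not tested.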
